A study of Mus musculus with 8 samples.

Results

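The 35 genes described here encode enzymes of cholesterol synthesis, proteins that regulate that pathway, and enzymes that turn cholesterol into bile acids. The list does not hold every enzyme of these pathways. They were 18 sterol synthesis enzymes, 5 sterol regulators or carriers and 12 bile acid synthesis enzymes. The list was made by gene symbol, with earlier results of these data known. They were read on probes whose RefSeq accession carries those symbols, and each gene was represented by its brightest probe among those well above background on at least 4 of 8 arrays. All 35 passed that filter and were well above background on 8 of 8 arrays, out of 24921 genes or transcripts tested, of which 15070 had a symbol.

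Liver RNA came from female B6C3F1 mice, bought at 5 to 6 weeks of age and acclimatised for 7 days or more. The vehicle group, replicates 2, 3, 4 and 6, was gavaged with corn oil, and the furan group, replicates 41, 42, 43 and 44, with furan in corn oil at 8 mg per kg body weight. Dosing lasted 21 days, and livers were removed 4 hours after the final dose and snap frozen. Furan is a small volatile compound formed in heated food that is toxic to rodent liver. Each of the 8 arrays, all on 1 slide, carried 1 sample in 1 colour. A level below is a log2 signal minus the 75th percentile of the array it was read on, and a change is the furan mean minus the vehicle mean on that log2 scale, with its standard error from limma. The comparison asked how 3 weeks of furan exposure altered liver transcripts.

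Cholesterol is built from acetyl-CoA through mevalonate, the isoprenoid farnesyl diphosphate, squalene and lanosterol. The transcription factor SREBP-2, product of Srebf2, drives the genes of these enzymes. Its escort Scap carries it out of the endoplasmic reticulum when sterols are scarce, and the Insig proteins hold the complex back when sterols are plentiful. In hepatocytes cholesterol is also the substrate for bile acids, made by the classic pathway that starts with Cyp7a1 or by the alternative pathway that starts with Cyp27a1. Bile acids repress Cyp7a1 through the nuclear receptor FXR and the repressor SHP, product of Nr0b2.

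The start sites of both branches were compared by sequence. RefSeq promoter windows on GRCm38.p6, from 250 bases before to 50 bases after a start site, were found for 25 of the 35 genes. The CCAAT box, bound by NF-Y, which works beside SREBP at many sterol promoters, was present on either strand in 14 of 15 sterol synthesis genes (93.3%), 3 of 4 regulators and 2 of 6 bile acid genes (33.3%), against 41.1% of 27025 genes. The Sp1 motif GGGCGG was in 14 of 15 sterol synthesis genes, 4 of 4 regulators and 3 of 6 bile acid genes, against 38.2% of all genes. The sterol regulatory element TCACNCCAC was found in 1 of the 15 sterol synthesis genes, Hmgcs1, and in 1.44% of all genes. The E-box TCACGTGA was in 0 of the 25 genes and in 1.12% of all genes. The nuclear receptor motif AGGTCA was in 2 of 15 sterol synthesis genes, 1 of 4 regulators and 2 of 6 bile acid genes, against 18.1% of all genes. Its extended form CAAGGTCA, which contains it and is known for LRH-1, was in Dhcr7 alone of the 25 and in 1.76% of all genes. A match is a description of letters, and a window without one says nothing about whether the factor binds.

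The windows below are chosen examples and do not represent their branches. Hmgcs1 and Cyp51 are sterol enzymes, Insig1 is a regulator, and Cyp27a1 and Cyp8b1 belong to bile acid synthesis. Each runs over the 250 bases before the start site, 5′ to 3′ on the strand of the gene, with CCAAT on either strand (ATTGG on the other) and the sterol regulatory element in capitals. They are chr13:119690101-119690350 (+ strand) for Hmgcs1, chr5:4104698-4104947 (- strand) for Cyp51, chr5:28071162-28071411 (+ strand) for Insig1, chr1:74713285-74713534 (+ strand) for Cyp27a1 and chr9:121916306-121916555 (- strand) for Cyp8b1.
Hmgcs1: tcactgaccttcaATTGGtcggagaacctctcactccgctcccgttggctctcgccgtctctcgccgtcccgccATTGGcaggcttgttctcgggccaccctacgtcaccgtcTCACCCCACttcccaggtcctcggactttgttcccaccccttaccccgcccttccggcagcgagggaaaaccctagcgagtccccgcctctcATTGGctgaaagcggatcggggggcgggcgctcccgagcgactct
Cyp51: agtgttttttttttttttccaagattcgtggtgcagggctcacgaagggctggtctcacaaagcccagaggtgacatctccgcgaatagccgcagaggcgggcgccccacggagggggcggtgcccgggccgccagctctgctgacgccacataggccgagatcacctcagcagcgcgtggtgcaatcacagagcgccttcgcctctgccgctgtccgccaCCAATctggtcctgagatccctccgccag
Insig1: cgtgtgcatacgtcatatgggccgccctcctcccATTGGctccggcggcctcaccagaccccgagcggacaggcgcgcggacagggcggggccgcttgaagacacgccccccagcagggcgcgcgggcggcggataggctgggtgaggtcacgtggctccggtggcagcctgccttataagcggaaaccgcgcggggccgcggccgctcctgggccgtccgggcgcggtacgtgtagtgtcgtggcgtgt
Cyp27a1: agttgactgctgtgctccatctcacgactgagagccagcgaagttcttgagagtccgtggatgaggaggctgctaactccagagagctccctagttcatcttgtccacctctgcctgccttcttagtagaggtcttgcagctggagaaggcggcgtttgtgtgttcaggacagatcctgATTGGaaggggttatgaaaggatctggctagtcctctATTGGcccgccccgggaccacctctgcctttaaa
Cyp8b1: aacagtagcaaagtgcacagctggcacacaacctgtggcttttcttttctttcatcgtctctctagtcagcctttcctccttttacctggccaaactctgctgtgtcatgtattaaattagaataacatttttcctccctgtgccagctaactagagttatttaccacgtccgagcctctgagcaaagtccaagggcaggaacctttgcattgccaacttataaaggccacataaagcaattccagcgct
The Hmgcs1 window holds 3 CCAAT boxes and the element TCACCCCAC, which starts 137 bases before the start site. Cyp51 and Insig1 hold 1 CCAAT box each and Cyp27a1 holds 2. The Cyp8b1 window, shown for contrast, held none of the motifs searched.

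The array of vehicle replicate 2 stood apart. On it 86.2% of probe spots exceeded background, against 55.1% to 69.4% elsewhere, and its median processed intensity was 130.4 against 32.5 to 48.2. Of the marker genes of hepatocytes, such as albumin, 10 of 10 were well above background on 8 of 8 arrays, and 0 of 10 were called.

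In the limma fit with Benjamini-Hochberg adjustment over all 24921, 4.18% of the genes or transcripts were called at an adjusted p under 0.05, 2.87% higher and 1.31% lower. Of the 35 genes of sterol and bile acid synthesis, 0 were called, and the lowest adjusted p was 0.0642, that of Acox2. At an unadjusted p under 0.05, 8 of the 35 passed, against 23.8% of all genes. Sqle, Cyp51, Insig1, Insig2, Akr1d1 and Acox2 were higher (6 of 35, against 12.3%), and Cyp27a1 and Amacr lower (2 of 35, against 11.5%). The groups did not overlap for 4 of the 35, against 18.1% of all genes. Insig1 and Acox2 were higher (10.8% of all genes) and Cyp27a1 and Amacr lower (7.33%). The 95% interval of the change lay within 2-fold in both directions for 29 of the 35 and within 1.5-fold for 17. For the other 6 a change past 2-fold in at least 1 direction was within the interval.

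**Figure D1:**
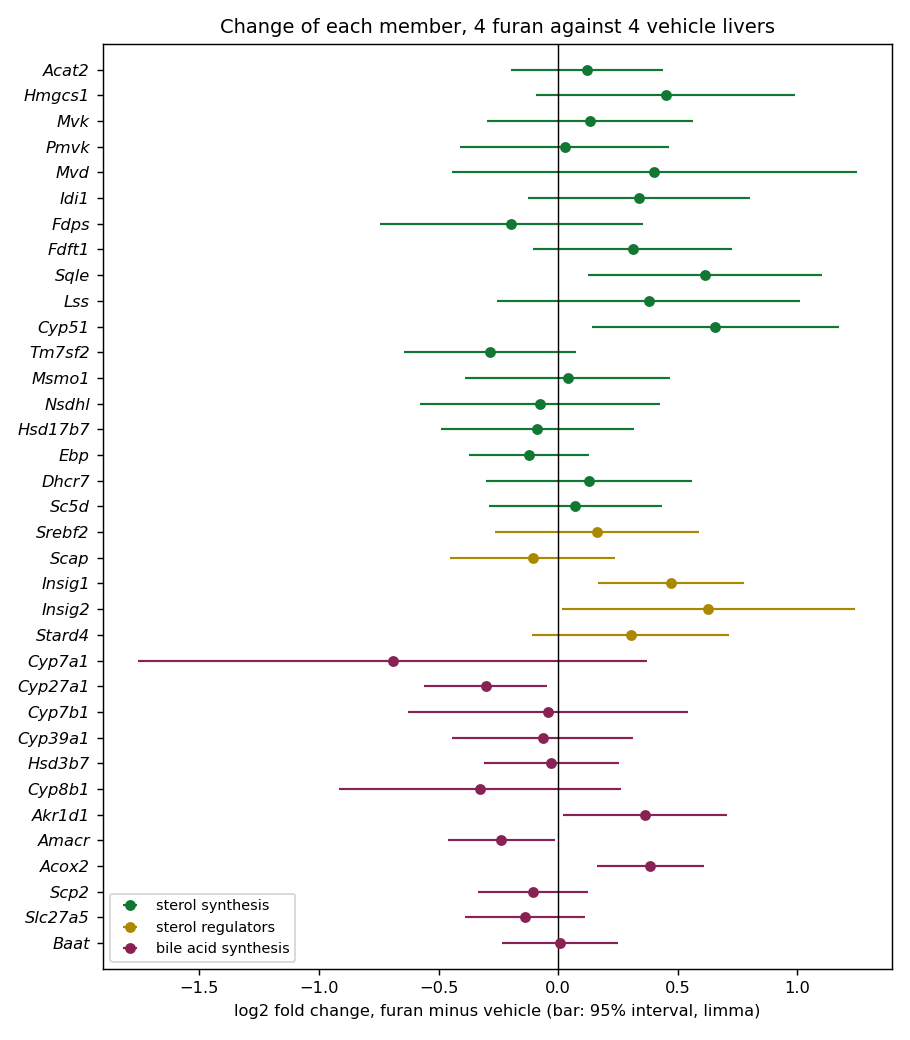
The horizontal axis is the log2 change, furan minus vehicle, of each of the 35 genes, with points for the limma estimate and bars for its 95% interval (4 arrays per group); colours mark sterol enzymes, regulators and bile acid enzymes. The intervals of 8 genes exclude 0, and that of Cyp7a1, from -1.75 to 0.37, is the widest.

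Of the 18 sterol synthesis enzymes, 13 had a change above 0 and 5 below, while 0 passed the test. Their median change was 0.13, against -0.09 over all genes, 39.8% of which lay above 0, and -0.0091 over genes with a symbol, of which 7366 of 15070 did. Single arrays moved the median of the 18, to 0.03 without vehicle replicate 4, 0.04 without furan replicate 43, 0.06 without furan replicate 41 and 0.22 without vehicle replicate 3. In the authors' value table the median of the 18 was 0.0047 against 0.0085 over all genes, and with quantile normalization it was 0.03 against 0.05, so their distance from the other genes held only under some scalings. The 7 listed enzymes of the first steps, between acetyl-CoA and farnesyl diphosphate, had 6 of 7 changes above 0 and a median of 0.13. The steps into and out of squalene (Fdft1, Sqle and Lss) had 3 of 3 above 0 and a median of 0.38, and the steps after lanosterol 4 of 8 and a median of -0.02.

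Of the mevalonate steps, Hmgcs1 encodes the cytosolic HMG-CoA synthase. Its levels were 6.43, 6.79, 5.97 and 6.02 on the vehicle arrays 2, 3, 4 and 6, the order used throughout, and 7.15, 6.37, 6.88 and 6.61 on the furan arrays 41, 42, 43 and 44. The groups overlapped, and the change was 0.45 ± 0.23 (SE, adjusted p = 0.276). Idi1, which isomerises isopentenyl diphosphate, stood at 5.31, 5.21, 4.66 and 5.04 with vehicle and at 5.69, 5.08, 5.66 and 5.15 with furan. Furan replicates 41 and 43 were above every vehicle array, replicates 42 and 44 lay among them, and the change was 0.34 ± 0.20 (adjusted p = 0.322). Fdps, which makes farnesyl diphosphate, went the other way in the mean, at 6.57, 6.88, 6.14 and 6.68 with vehicle and 6.64, 5.91, 6.80 and 6.15 with furan. Its change of -0.20 ± 0.24 was below its standard error (adjusted p = 0.604). Acat2 (the cytosolic thiolase), the kinases Mvk and Pmvk, and the decarboxylase Mvd had changes of 0.12 ± 0.14, 0.13 ± 0.19, 0.03 ± 0.19 and 0.40 ± 0.37, with adjusted p from 0.488 to 0.932. A dimmer Mvk probe gave -0.03.

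Sqle encodes squalene epoxidase, a rate-controlling enzyme of the later pathway. Its levels were 4.68, 4.73, 4.02 and 4.07 with vehicle and 5.12, 4.68, 5.27 and 4.88 with furan. Vehicle replicates 4 and 6 were low, and furan replicate 42 alone fell within the vehicle range. The change was 0.61 ± 0.21, or 1.53-fold with a 95% interval from 1.09 to 2.15, and did not pass the adjusted threshold (adjusted p = 0.139). Fdft1, the squalene synthase, changed by 0.31 ± 0.18 and Lss, which closes the ring to lanosterol, by 0.38 ± 0.27 (adjusted p = 0.312 and 0.397). A second, dimmer Fdft1 probe gave -0.01.

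Cyp51, the lanosterol demethylase, had the largest change of the sterol enzymes. It measured 1.15, 1.27, 0.61 and 0.67 with vehicle and 1.90, 1.12, 1.81 and 1.51 with furan. Furan replicate 42 was again the array inside the vehicle range, and vehicle replicates 4 and 6 were again low. The change was 0.66 ± 0.22, or 1.58-fold, with an interval from 0.14 to 1.17 on the log2 scale (adjusted p = 0.133).

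Of the other enzymes after lanosterol, Tm7sf2, a sterol C14 reductase, stood at 6.84, 7.30, 7.18 and 7.31 with vehicle and at 7.11, 6.88, 6.55 and 6.95 with furan. The groups overlapped, with a change of -0.29 ± 0.16 (adjusted p = 0.291), the lowest of the 18. Ebp, the sterol isomerase, measured 8.48, 8.76, 8.44 and 8.66 with vehicle and 8.53, 8.48, 8.55 and 8.29 with furan, a change of -0.12 ± 0.11 (adjusted p = 0.474). The methyl oxidase Msmo1, the dehydrogenase Nsdhl, the ketoreductase Hsd17b7, the last-step reductase Dhcr7 and the desaturase Sc5d changed by 0.04, -0.08, -0.09, 0.13 and 0.07, each by less than its standard error. Second probes of Nsdhl and Hsd17b7 had the opposite sign, 0.34 and 0.09.

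The sterol enzymes varied together from array to array within each group. With 1 array per liver, variation between livers and between hybridisations cannot be told apart. On each array, the mean deviation of the 18 enzymes from their own means over the 8 arrays was taken as the sterol score. It was -0.04, 0.23, -0.36 and -0.16 with vehicle and 0.30, -0.24, 0.29 and -0.03 with furan. On furan replicate 41, 18 of 18 enzymes were above their own mean, and on furan replicate 43 it was 16, while on furan replicate 42 it was 2. The vehicle group was as divided, with 17 of 18 above on replicate 3 and 1 of 18 on replicate 4. The group means of the score, -0.08 ± 0.25 (SD, n = 4) and 0.08 ± 0.26, differed by less than their SDs. The median SD of a sterol enzyme within a group was 0.28, against 0.15 for a bile acid enzyme and 0.19 for all genes with a symbol. The 18 values on an array share 1 liver and 1 hybridisation, and they are not replicates.

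**Figure D2:**
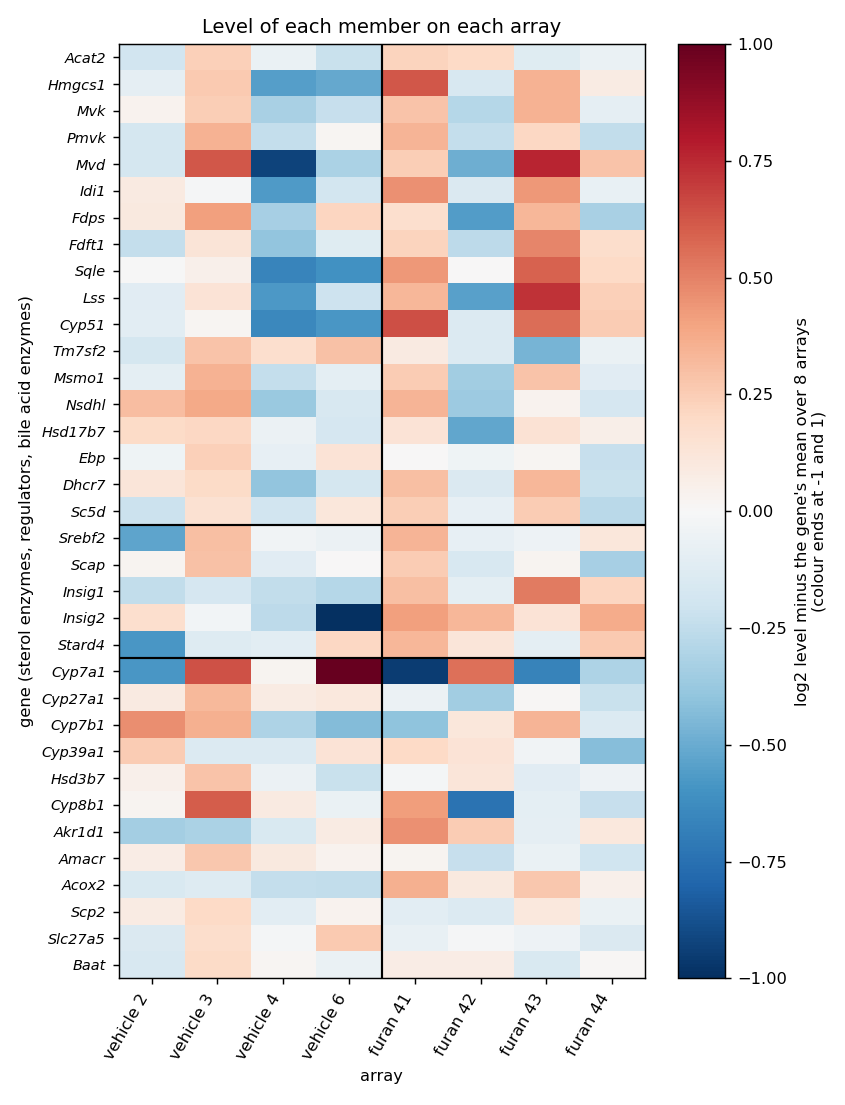
Each row is 1 of the 35 genes and each column 1 of the 8 arrays (4 vehicle, then 4 furan); colour is the log2 level minus the mean of that gene over the 8 arrays, with the scale ending at -1 and 1. The sterol rows are mostly red on vehicle 3, furan 41 and furan 43 and mostly blue on vehicle 4 and furan 42, across both groups.

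Levels were also read against this shared variation, a step taken after the values were seen and given with no test. Measured against the mean of the other 17 sterol enzymes on the same array, Hmgcs1 ran from -0.38 to 0.03 with vehicle and from 0.06 to 0.34 with furan. Sqle ran from -0.48 to 0.04 and from 0.15 to 0.31, and Cyp51 from -0.45 to -0.06 and from 0.10 to 0.37. In these 3 of 18 the furan arrays lay wholly above the vehicle arrays, and in 0 of 18 wholly below. Against the mean of the 18, no regulator had furan arrays wholly above or below the vehicle arrays. Insig1, whose own levels did not overlap, ran there from -0.41 to 0.12 with vehicle and from 0.0015 to 0.25 with furan. Of all 24921 genes or transcripts set against the same mean, 1.23% lay wholly above and 4.73% wholly below. The shares are not like for like, since this step takes shared variation out of the sterol enzymes and adds it to genes that do not follow them.

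Of the 5 regulators and carriers, 4 had changes above 0 and 0 were called. Their median change was 0.30. Insig1, which retains the SREBP escort and is itself induced by SREBP, was 2.26, 2.33, 2.26 and 2.21 with vehicle and 2.80, 2.40, 3.02 and 2.72 with furan. The vehicle arrays were close together, and the lowest furan array, replicate 42, was above all of them. The change was 0.47 ± 0.13, or 1.39-fold with an interval from 1.12 to 1.71 (adjusted p = 0.0855). With the trend and robust options of eBayes, under which 8.03% of all genes were called, it passed (adjusted p = 0.0405), and over its other alternatives the adjusted p reached 0.484.

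Insig2, the second retention protein, was 5.42, 5.23, 4.99 and 4.12 with vehicle and 5.66, 5.59, 5.39 and 5.63 with furan. The furan arrays were close together and vehicle replicate 6 was low. The change was 0.63 ± 0.26 (adjusted p = 0.203), and 0.35 without vehicle replicate 6. A second Insig2 probe for another transcript accession changed by 0.66 ± 0.24. Srebf2 itself was -0.21, 0.63, 0.28 and 0.26 with vehicle and 0.66, 0.24, 0.27 and 0.44 with furan, a change of 0.16 ± 0.18 (adjusted p = 0.581), and 0.01 without vehicle replicate 2.

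Scap, the escort, was 6.47, 6.74, 6.34 and 6.45 with vehicle and 6.70, 6.29, 6.47 and 6.11 with furan, a change of -0.11 ± 0.15 (adjusted p = 0.654). Stard4, a cytosolic sterol carrier, was 3.47, 3.92, 3.95 and 4.26 with vehicle and 4.38, 4.17, 3.95 and 4.31 with furan. Vehicle replicate 2 was the low array, and the change of 0.30 ± 0.18 (adjusted p = 0.317) was 0.16 without it. A dimmer second probe of Stard4 gave 0.54 ± 0.14.

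**Figure D3:**
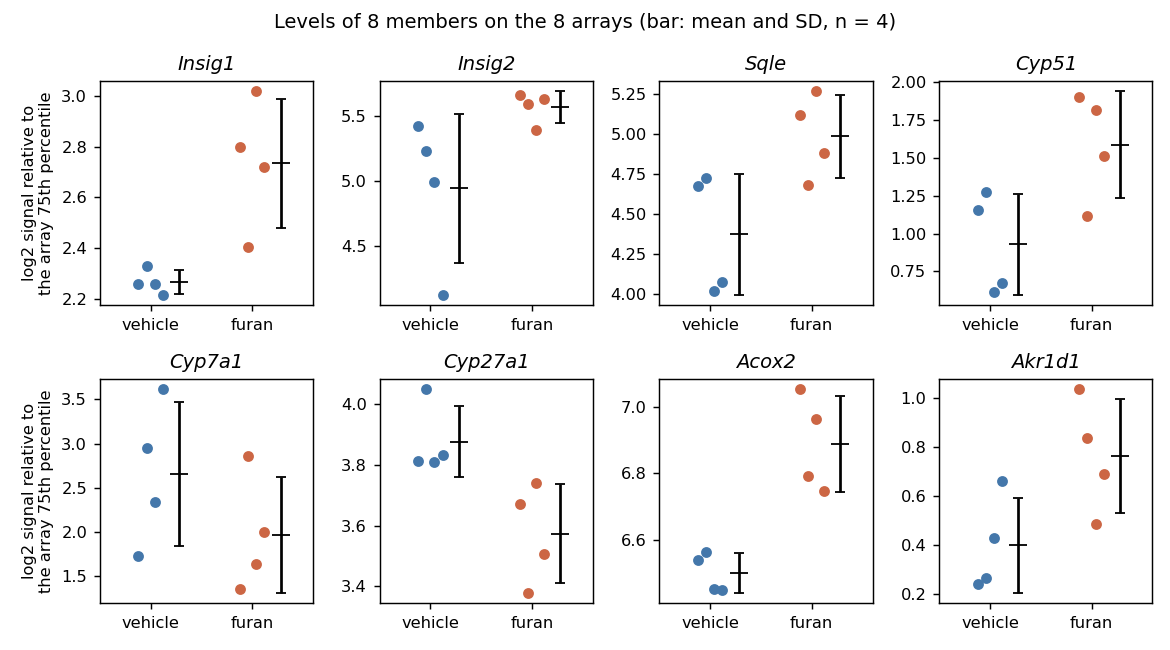
The vertical axis of each panel is the log2 signal of 1 gene relative to the 75th percentile of its array; points are the 4 vehicle and 4 furan arrays, and bars the mean and SD (axes do not start at 0 and differ between panels). Furan lies wholly above vehicle for Insig1 and Acox2 and wholly below for Cyp27a1, while Sqle and Cyp51 overlap on furan replicate 42.

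Of the 12 bile acid enzymes, 9 had a change below 0 and 3 above, and again 0 passed the test. Their median change was -0.08, against -0.09 for all genes and -0.0091 for genes with a symbol. It was -0.15 without vehicle replicate 4 or furan replicate 43. With the arrays shifted to their median or left unshifted it was 0.40 and 0.04, but these scalings move all genes alike, to medians of 0.39 and 0.03. The 4 enzymes that start the pathways on cholesterol or an oxysterol (Cyp7a1, Cyp27a1, Cyp7b1 and Cyp39a1) had 4 of 4 changes below 0, with a median of -0.18. In bulk liver, fewer cells of a type and less RNA per cell cannot be told apart.

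Cyp7a1, the rate-limiting enzyme of the classic pathway, varied most of the 35. Its levels were 1.73, 2.95, 2.34 and 3.62 with vehicle and 1.36, 2.86, 1.64 and 2.00 with furan. Furan replicates 41 and 43 were below every vehicle array, and replicate 42 was among the higher arrays of the series. The change was -0.69 ± 0.46, with an interval from -1.75 to 0.37 (adjusted p = 0.364). It was -0.37 without vehicle replicate 6 and -1.002 without vehicle replicate 2. Within furan, the livers with the highest sterol score, 41 and 43, had the lowest Cyp7a1, and the liver with the lowest score, 42, had the highest. The vehicle livers did not follow that order. Replicate 3, with the highest score of that group, was at 2.95, and replicate 4, with the lowest, was at 2.34.

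Cyp27a1, the mitochondrial enzyme of the alternative pathway, was 3.81, 4.05, 3.81 and 3.83 with vehicle and 3.67, 3.38, 3.74 and 3.50 with furan. Every furan array was below every vehicle array. The change was -0.30 ± 0.11, with vehicle over furan at 1.23-fold (adjusted p = 0.157). It was called with normexp and quantile normalization (adjusted p = 0.0427, with 5.2% of all genes called) and in the authors' value table (0.0347, with 6.71% called). Under the median shift, which raised all changes alike, it was 0.18 (adjusted p = 0.797), below the all-gene median of 0.39. Cyp7b1, the oxysterol 7-alpha hydroxylase, was 5.02, 4.91, 4.25 and 4.13 with vehicle and 4.16, 4.67, 4.90 and 4.42 with furan. The groups covered much the same range, and the change was -0.04 ± 0.25 (adjusted p = 0.926). Cyp39a1, which hydroxylates another oxysterol, changed by -0.06 ± 0.16.

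Among the ring-modifying steps, Cyp8b1, the 12-alpha hydroxylase that directs synthesis to cholic acid, was 3.44, 4.02, 3.50 and 3.35 with vehicle and 3.83, 2.67, 3.32 and 3.18 with furan. Furan replicate 41 lay among the vehicle arrays and the other 3 below them, and the change was -0.33 ± 0.25 (adjusted p = 0.425). It was -0.52 without furan replicate 41, -0.14 without furan replicate 42 and -0.18 without vehicle replicate 3. Akr1d1, the 5-beta reductase, was 0.24, 0.27, 0.43 and 0.66 with vehicle and 1.04, 0.84, 0.49 and 0.69 with furan. Furan replicate 43 fell within the vehicle range, and the change was 0.36 ± 0.15, or 1.29-fold (adjusted p = 0.192). Hsd3b7, the dehydrogenase that follows 7-alpha hydroxylation, changed by -0.03 ± 0.12.

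The peroxisomal side chain steps moved apart in sign. Acox2, the branched-chain oxidase that starts shortening of the side chain, was 6.54, 6.57, 6.45 and 6.45 with vehicle and 7.05, 6.79, 6.96 and 6.75 with furan. Every furan array was above every vehicle array. The change was 0.39 ± 0.10, or 1.31-fold with an interval from 1.12 to 1.52, and the adjusted p of 0.0642 missed the threshold. It was called under 4 of 21 alternatives, namely trend and robust, normexp, a filter on all 8 arrays (8.12% of all genes called) and array weights (8.96%), with adjusted p from 0.0226 to 0.499 over the 21. Amacr, the racemase that prepares the substrate of Acox2, was 6.89, 7.09, 6.91 and 6.86 with vehicle and 6.84, 6.59, 6.76 and 6.62 with furan, given in full because its groups did not overlap. Its change was -0.24 ± 0.10 (adjusted p = 0.192). Scp2, whose long product is the thiolase of the last step, changed by -0.10 ± 0.10.

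For conjugation, Baat, which joins bile acids to taurine or glycine, was 2.37, 2.71, 2.55 and 2.46 with vehicle and 2.60, 2.60, 2.38 and 2.54 with furan. The change was 0.01 ± 0.10, with an interval from -0.24 to 0.25 (adjusted p = 0.971). Slc27a5, the bile acid CoA ligase, changed by -0.14 ± 0.11 (adjusted p = 0.430).

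Both branches were set against each other on each array by subtracting the score of the 12 bile acid enzymes, built the same way, from the sterol score. The bile acid score was -0.03, 0.21, -0.06 and 0.08 with vehicle and -0.01, -0.01, -0.04 and -0.13 with furan. The difference was -0.02, 0.03, -0.30 and -0.23 with vehicle and 0.30, -0.23, 0.34 and 0.10 with furan. It averaged -0.13 ± 0.16 (SD, n = 4) and 0.13 ± 0.26. Furan replicates 41, 43 and 44 were above every vehicle array, and replicate 42 lay among them. The gap of 0.26 between the group means ran from 0.19 to 0.38 with each array left out and from 0.17 to 0.35 over the other alternatives. A shift of a whole array does not enter this difference.

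**Figure D4:**
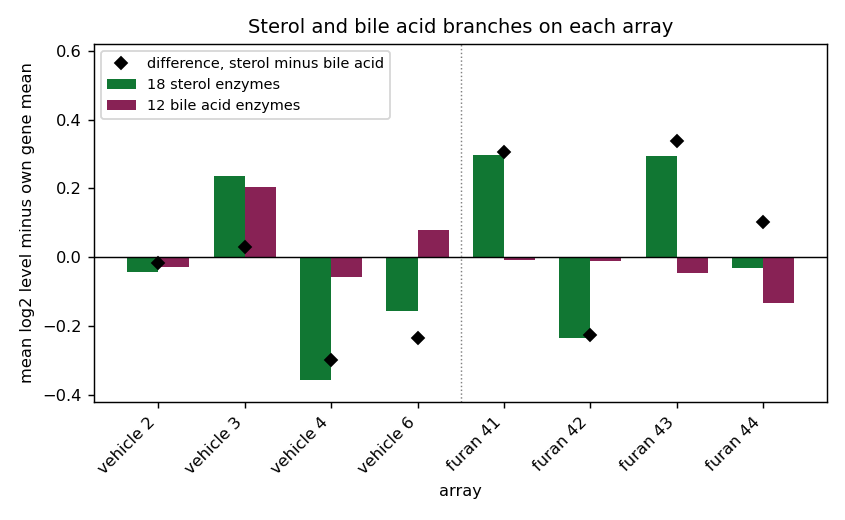
Bars are the mean log2 level minus the own mean of each gene for the 18 sterol and 12 bile acid enzymes on each of the 8 arrays, and diamonds the sterol minus bile acid difference. The difference is highest on furan 41 and 43 (0.30 and 0.34) and lowest on vehicle 4 (-0.30), and furan 42 (-0.23) sits among the vehicle arrays.

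The same values were also read by position on the slide, since each of the 4 slide columns held 1 vehicle and 1 furan array. Hmgcs1, Idi1, Sqle, Cyp51, Dhcr7, Insig1, Insig2, Akr1d1 and Acox2 were higher with furan in 4 of 4 columns, and Cyp7a1, Cyp27a1 and Amacr lower in 4 of 4. For Insig1, Acox2, Cyp27a1 and Amacr this adds nothing, because groups that do not overlap differ alike in any pairing. The share of all genes with 4 of 4 columns alike was not computed. Sqle was higher by 0.61, 0.54, 0.44 and 0.86 in columns 1 to 4, and Cyp51 by 0.45, 0.54, 0.75 and 0.90. With the column as a block, limma called 0% of all genes, and 8 of the 35 had an unadjusted p under 0.05, against 19% of all. The difference between branches was 0.35 within slide row 1 and 0.17 within slide row 2, each holding 2 arrays per group.

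Other genes of sterol balance, covering uptake, efflux, esterification and SREBP processing, gave 1 call of a higher level among the 32 measured of 33 listed, with a median change of -0.03, against 2.87% of all genes called higher. Mbtps2, the site-2 protease that frees SREBP from the membrane, went from -2.71 ± 0.17 (SD, n = 4) to -2.22 ± 0.10, a change of 0.50 ± 0.11 (adjusted p = 0.0485). Its call held in 1 of 8 fits with an array left out, the one without vehicle replicate 2, and the adjusted p reached 0.126. It was lost in 10 of 13 other alternatives.

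Of the genes of bile acid regulation, transport and peroxisomal oxidation, 0 of 32 measured (34 listed) were called higher and 2 lower, against 2.87% and 1.31% of all genes, with a median change of -0.05. Hsd17b6, a 3-alpha and 17-beta hydroxysteroid dehydrogenase, was 4.78, 4.94, 4.87 and 4.87 with vehicle and 4.22, 4.42, 4.39 and 4.22 with furan, and it fell by 0.55 ± 0.09 (adjusted p = 0.0199). Slco2b1, an organic anion uptake carrier, was 4.63, 5.05, 4.72 and 5.04 with vehicle and 4.22, 3.92, 4.09 and 4.19 with furan, and it fell by 0.75 ± 0.13 (adjusted p = 0.0243). Furan lay wholly below vehicle for both. Each call held in 1 of 8 fits with an array left out, with adjusted p up to 0.0693 and 0.0767. Both calls were lost with the median shift, with no shift, with no filter and with the slide column as a block.

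The largest changes of that list without a call were those of Slco1a1, an uptake carrier, at -0.94 ± 0.28 (adjusted p = 0.0979), and Nr0b2. Nr0b2 was 1.63, -0.16, -0.43 and 0.26 with vehicle and 1.32, 0.65, 1.13 and 1.31 with furan. Vehicle replicate 2 was the highest of all 8 arrays, and the other vehicle arrays were below every furan array. The change was 0.78 ± 0.43 (adjusted p = 0.296), and 1.21 without vehicle replicate 2 (adjusted p = 0.0369). That was the only 1 of 8 fits with an array left out in which Nr0b2 was called. Over those 8 the change ran from 0.52 to 1.21 and the adjusted p reached 0.484. Nr0b2 was called in 0 of 13 other alternatives. Vehicle replicate 2, the array that stood apart in intensity, also had the lowest Cyp7a1 of its group. Vehicle replicate 6, next in Nr0b2 within that group, had the highest Cyp7a1 of all 8 arrays (3.62). A link between these 2 genes was not tested.

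Markers of liver zones and of other cell types were read beside these changes, and 0 were called in any list. Of all genes, 39.8% had a change above 0. Of the 10 general hepatocyte markers, 8 had changes below 0, with a median of -0.09. Of 8 pericentral hepatocyte markers, such as Glul, 8 had changes below 0 with a median of -0.26, and their score, built as above, ran from -0.03 to 0.34 with vehicle and from -0.29 to -0.06 with furan. That separation depends on Axin2, a dim gene well above background on 5 of 8 arrays. With Axin2 left out, the scores of the groups overlap, furan replicate 42 lying among the vehicle arrays. Axin2 was at -2.02 on vehicle replicate 2 and from -3.99 to -3.72 on the other vehicle arrays. Of 8 periportal markers, 5 were above 0, with a median of 0.13. Of 7 sinusoidal endothelial markers, 6 were below 0, with scores from -0.01 to 0.21 with vehicle and from -0.27 to -0.01 with furan. The medians of the bile duct (6 of 7 measured), Kupffer cell (7 of 8) and stellate cell (7 of 7) markers were 0.04, -0.09 and -0.03. Their part in the sterol and bile acid values was not tested.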

How the data were processed

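Liver RNA of 8 mice was measured on 8 one-colour arrays of 1 slide (design 028005). Per the file headers, the deposited scanner files give spot intensity from Agilent Feature Extraction 11.0.1.1, including a processed intensity already corrected for background. The value table deposited by the authors holds log2 values, made by a method not given in the sources used here. Across probes, which are not replicates, each of its columns correlates with the log2 median intensity of that array (r from 0.998 to 1.00).

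From 62976 spots per array, 3671 controls were left out, and so were spots marked as outliers (128 to 315 an array); 0 were saturated. Processed intensity was taken to log2 and shifted by the 75th percentile of its array, spots of a probe were averaged, and probes well above background on at least 4 of 8 arrays were kept. Each gene took its brightest kept probe. Of the 35 genes, 11 had several kept probes, and in 4 of these the probes differed in sign. Symbols came from RefSeq accessions through a table for GRCm38.p6, matching 27235 of 28685 such probes. Probe positions in the files are on another build and are not printed.

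The 24921 genes or transcripts were fitted in limma 3.58.1 (R 4.3.3; lmFit, eBayes) over all 8 arrays with the group as the only term; p-values are 2-sided and Benjamini-Hochberg adjusted. The fit was tested on simulated data. A randomized block design is named in the labels, but not the animals of each block. Alternatives were a median shift, no shift, quantile normalization, normexp (offset 50) with quantile normalization, no filter or one on all 8 arrays, the authors' value table, outlier spots kept, probes of a gene averaged, array weights, eBayes with its trend and robust options, a block for slide row or for column (from the file headers), and each array left out. That makes 21. For the difference between branches, the median over genes, the regulators added to the sterol side, and each slide row were also used.

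The genes, lists and tests were chosen with earlier results of these data known. Values on every array are given for called genes, for the 3 largest and 3 smallest changes of each branch and for 12 chosen genes (Hmgcs1, Idi1, Fdps, Sqle, Cyp51, Insig1, Insig2, Srebf2, Cyp7a1, Cyp8b1, Cyp27a1, Cyp7b1); Amacr was added after its values were seen. Of further lists, called genes and the 2 largest changes are named. Some genes that the rule names are not reported here. Motifs were searched on both strands of the RefSeq windows, and a gene counts as matched if any of its windows holds the motif. Python 3.11.15 with pandas 2.3.3, numpy 2.4.6 and matplotlib 3.10.9 was used for lists and figures. The number of arrays, 4 per group, limits the precision of each value.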

Additional observations from a re-analysis of the deposited data

Results flagged for a closer look

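Of 76 sets of 4 values checked, 70 of them a gene in a group and 6 a branch score in a group, 2 held 1 array far from the others, and chance alone gives about 1 in 20. Hsd17b7 was 2.45 on furan replicate 42, against 3.03 to 3.11 on the other furan arrays; that array also had the lowest sterol score of the furan group. Cyp27a1 was 4.05 on vehicle replicate 3, against 3.81 to 3.83 on the other vehicle arrays, and its change without that array was -0.24.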

How the results depend on the processing

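Over 21 alternatives, 16 of the 35 genes kept the sign of their change, 14 turned under the median shift, which raised all changes alike, and 0 were called in any fit with an array left out. Calls over all genes went from 1041 to 86 with a median shift, 261 with no shift, 163 with no filter, 1671 in the authors' value table, 1733 with a filter on all 8 arrays, 2001 with trend and robust, 2234 with array weights, and from 195 to 927 with each array left out (195 without furan replicate 41 or 43). With the slide column as a block limma called 0, while 4723 genes (19%) and 8 of the 35 had an unadjusted p under 0.05. Bile acid genes called went from 0 to 2 with normexp (Acox2 and Cyp27a1), and to 1 in the authors' value table (Cyp27a1), with a filter on all 8 arrays, with trend and robust and with array weights (Acox2). Regulators called went from 0 to 1 with trend and robust (Insig1), and sterol enzymes called stayed at 0. The median change over all genes moved from -0.09 to 0.39 with the median shift. Those of the sterol enzymes, regulators and bile acid enzymes became 0.61, 0.79 and 0.40, and the sterol median minus that of all genes stayed at 0.22. The bile acid median was 0.042 with no shift and -0.19 in the authors' value table. The regulator median was 0.17 with array weights and from 0.16 (without vehicle replicate 2) to 0.38 with each array left out. The difference between branches stayed above 0 under each alternative run. No paired analysis by replicate number was possible because the groups share none; the slide column was the pairing used. The causes were not tested. Signal over background limited none of the 35 genes.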
